A study of Homo sapiens with 8 samples.

Results

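AXIN2, NKD1, RNF43, ZNRF3, NOTUM, DKK1, LGR5, TCF7, SP5 and GLUL are known targets of the Wnt/β-catenin pathway, and these 10 genes were taken by name from the 26235 genes of the count files. Symbols were matched to Entrez gene IDs through RefSeq, and no expression value entered the rule. The 10 genes were, however, chosen with earlier results of these data known. Their counts below therefore describe these genes and do not test a list set blind. All 10 passed the filter on low counts and were tested among 15460 genes. Their raw counts ran from 189 to 21232 per library.

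RNA sequencing was performed in HepG2 cells, a human line derived from hepatocellular carcinoma, that were grown without phenol red in charcoal-stripped serum and starved in 0.1% FBS for 16 h. Cells then received DMSO as the vehicle (control), 17β-estradiol (E2), the ERα agonist PPT or the ERβ agonist DPN, each compound at 1 µM, and were harvested at 48 h. E2 is a steroid, whereas PPT and DPN are nonsteroidal. Each of the 4 groups had 2 libraries of 25103160 to 29670814 counts, while the study's methods describe more replicates per treatment than the libraries analysed here. No source used here says that the libraries came from separate cultures, so a p-value reflects the spread of these libraries alone, which may be technical. Every group is the same cell line, with no genetic change between groups. The 10 hepatocyte and hepatoma markers, among them ALB, AFP and APOB, were all above 1 CPM (counts scaled by library size), and their summed level was 61900 to 63800 CPM in the control libraries, 69100 to 71400 with E2, 41800 to 45600 with PPT and 42400 to 43600 with DPN. PTPRC, which marks blood cells, reached at most 0.19 CPM and the fibroblast collagen COL1A1 at most 0.101 CPM. Of 18 markers of other cell types, 7 had a mean of at least 1 CPM, with LYZ, lysozyme, at 570 to 1360 CPM, CD14 at 1.21 to 11.4, PECAM1, VWF, PDGFRB and ACTA2 at up to 37.4, and the cholangiocyte marker SOX9, also a reported β-catenin target, at 114 to 367. In bulk RNA a smaller share of cells with a transcript and less transcript per cell cannot be told apart.

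β-Catenin is kept low in resting cells by a destruction complex built on APC and the axins, in which the kinases CK1 and GSK3 mark it for degradation. When Wnt ligands bind Frizzled receptors and LRP5 or LRP6, the complex is held inactive, and β-catenin enters the nucleus and acts with TCF/LEF factors. Many of the genes it induces encode its own inhibitors, so their transcripts serve as a readout of the pathway. In liver, this pathway maintains the gene program of hepatocytes around the central vein, with GLUL as a classical example. HepG2 cells are known to carry a shortened CTNNB1 allele whose product lacks the part needed for its degradation.

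PPT and DPN lowered most of these targets, while E2 raised several and lowered a pair of them. With PPT, 9 of the 10 genes were lower than in control cells and none was higher (22.8% of all tested genes were lower, and 22.9% higher). With DPN, 9 of 10 were lower and none was higher, where 24.1% of all tested genes were lower and 24.4% higher. With E2, 6 were higher and 2 lower, against 30.8% higher and 31.8% lower among all tested genes (33.6% of the changed genes were higher when scaled by library size alone). That E2 split became 4 higher and 3 lower when libraries were scaled by size alone, a setting that shifted the median of all genes with E2 by -0.22 on the log2 scale. The counts of 0 higher genes with PPT and DPN were also 0 at an unadjusted p under 0.05 and with DESeq2. Over the 10 genes the median log2 fold change was 0.33 for E2, -1.28 for PPT and -0.70 for DPN. Over all genes tested it was -0.0041, 0.0075 and -0.0045.

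All adjusted p-values are from edgeR's quasi-likelihood F test on the 8 libraries, adjusted over all genes tested, and a gene is said to rise or fall at an adjusted p under 0.05. At the stricter thresholds of the study's methods, a log2 fold change over 1.5 in size and an adjusted p under 0.01, RNF43, NOTUM, DKK1 and LGR5 were called as falls with PPT (2.86% of all tested genes). No target was called with E2 (10.1%) or DPN (3.95%), and none was with DESeq2 or at an unadjusted p under 0.05 with the same fold. All comparisons with the control use the same 2 control libraries. The summed hepatocyte markers were also higher with E2 and lower with PPT and DPN, but single markers split, with AFP at 16100 to 16800 CPM in control and 9460 to 9660 in E2 libraries, ALB at 10600 to 11200 and 17900 to 18200, and APOB at 12000 to 12300 in control and 14100 to 14900 in PPT libraries. Their part in these results was not tested.

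**Figure D1:**
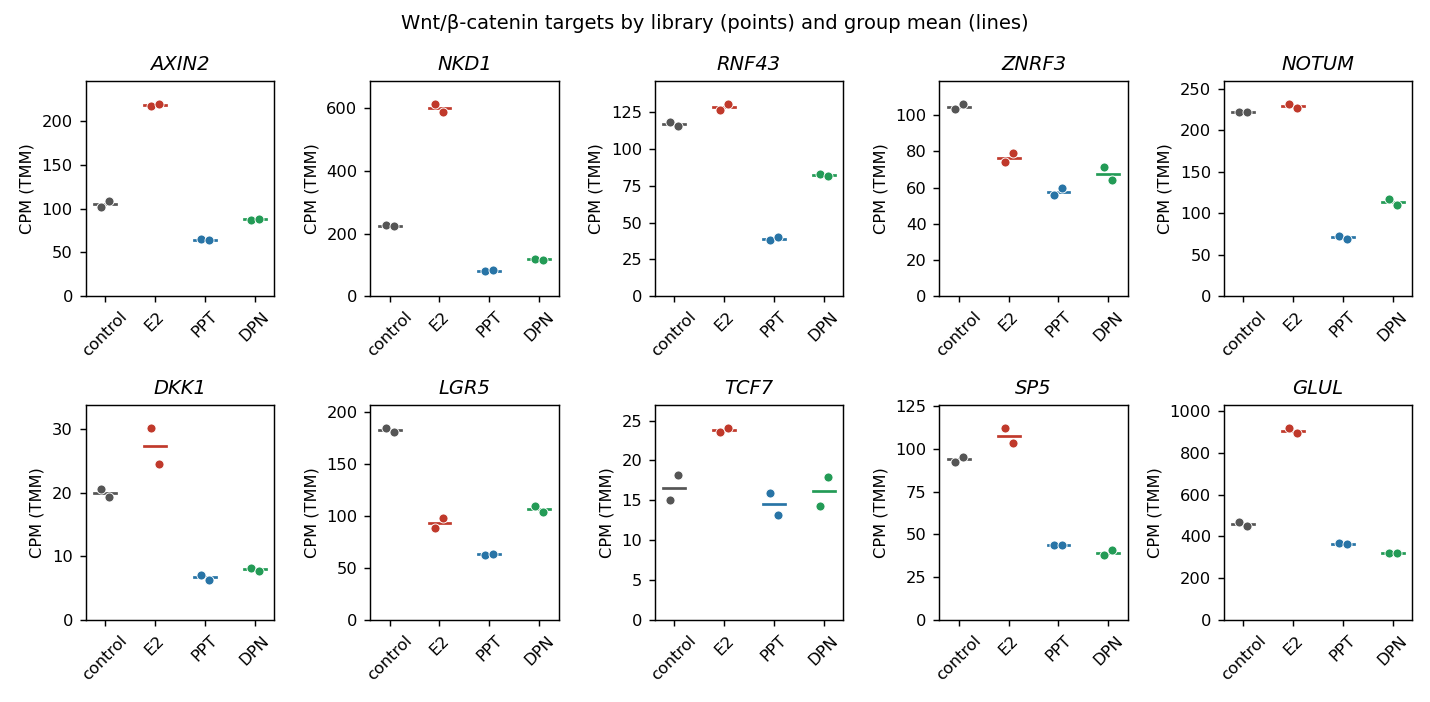
Level of each target in every library. Each panel shows 1 gene; the y axis is CPM after TMM scaling and starts at 0, points are the 2 libraries of a group and lines their mean. PPT libraries lie below both control libraries in every panel except TCF7, and LGR5 and ZNRF3 are the genes whose E2 libraries lie below the control.

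Of the feedback inhibitors inside the cell, AXIN2 was about doubled by E2 and reduced by both agonists. AXIN2 (GeneID 8313, chromosome 17 from 65528563 to 65561648 of GRCh38, minus strand) is the inducible axin, a scaffold of the destruction complex. Its level was 102 and 109 CPM in the control libraries, 217 and 219 with E2, 65.01 and 63.7 with PPT, and 87.3 and 88.5 with DPN. The 4 groups did not overlap, with E2 highest and PPT lowest. AXIN2 rose with E2 (log2 fold change = 1.05; standard error 0.07; adjusted p = 3.04e-13), and fell with PPT (-0.71; adjusted p = 2.14e-09) and with DPN (-0.26; adjusted p = 0.00211).

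NKD1 spanned the widest range of the targets, 7.59-fold from its lowest to its highest library. NKD1 (GeneID 85407, chromosome 16 from 50548396 to 50649249, plus strand) encodes naked cuticle 1, which binds Dishevelled and restrains Wnt signaling. It stood at 226 and 225 CPM in control cells, 613 and 586 with E2, 80.8 and 82.4 with PPT, and 119 and 116.6 with DPN. E2 raised it to 2.66 times the control level (log2 fold change = 1.41, 95% interval 1.28 to 1.54; adjusted p = 1.10e-16). It fell with PPT to 36.2% of control (-1.47; adjusted p = 2.53e-16) and with DPN to 52.2% (-0.94; adjusted p = 2.10e-12). NKD1 and AXIN2 thus had the same order of groups, PPT, DPN, control and E2 from low to high, and every neighbouring pair in that order differed past the test.

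The receptor-removing ligases RNF43 and ZNRF3 fell with both agonists but differed with E2. Both encode membrane ubiquitin ligases that take Frizzled receptors off the cell surface. RNF43 (GeneID 54894, chromosome 17 from 58353676 to 58417595, minus strand) was at 118 and 115 CPM in control cells, 127 and 130.4 with E2, 38.3 and 40.1 with PPT, and 82.7 and 81.4 with DPN. PPT reduced it to 33.6% of control (log2 fold change = -1.57; adjusted p = 6.30e-16), and DPN to 70.3% (-0.51; adjusted p = 8.64e-07). The E2 libraries lay above the control ones, but the difference did not pass the test (0.14, 95% interval -0.0035 to 0.28; adjusted p = 0.0833), and it was -0.09 with scaling by library size alone. It passed as a rise with upper-quartile scaling (0.16; adjusted p = 0.04) and with a filter of 1 CPM in 2 libraries (0.165; adjusted p = 0.0362).

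ZNRF3 (GeneID 84133, chromosome 22 from 28883572 to 29057488, plus strand) was at 103 and 106 CPM in control cells, 74.3 and 78.9 with E2, 55.9 and 59.5 with PPT, and 71.5 and 64.1 with DPN. Control libraries were the highest, and those of E2 came next, above both DPN libraries. ZNRF3 fell with E2 (log2 fold change = -0.45; adjusted p = 1.15e-05), PPT (-0.86; adjusted p = 4.36e-10) and DPN (-0.63; adjusted p = 1.18e-07).

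Both secreted antagonists were reduced by the agonists. NOTUM (GeneID 147111, chromosome 17 from 81952507 to 81961840, minus strand) encodes a secreted enzyme that removes the lipid Wnt proteins need for activity. It was at 222 and 221 CPM in control cells, 231 and 227 with E2, 73.0 and 69.1 with PPT, and 117.4 and 109.7 with DPN. PPT gave the largest fall of any target in the comparisons with the control, to 32.0% of the control level (log2 fold change = -1.64, 95% interval -1.78 to -1.501; adjusted p = 7.87e-17), and DPN lowered NOTUM to 51.2% (-0.97; adjusted p = 3.17e-12). With E2 it stayed near control (0.05, 95% interval -0.09 to 0.18; adjusted p = 0.559), but with scaling by library size alone it was lower by that test (-0.18; adjusted p = 0.0202).

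DKK1 (GeneID 22943, chromosome 10 from 52314281 to 52318042, plus strand) encodes Dickkopf-1, which blocks the coreceptors LRP5 and LRP6. Its level was 20.5 and 19.3 CPM in control cells, 30.2 and 24.5 with E2, 7.04 and 6.33 with PPT, and 8.14 and 7.73 with DPN. All 4 agonist libraries were under 50% of either control library, whereas the E2 pair was the most spread. DKK1 fell to 33.5% of control with PPT (log2 fold change = -1.58; standard error 0.13; adjusted p = 1.59e-10) and to 39.8% with DPN (-1.33; adjusted p = 2.95e-09). It rose with E2 (0.45; adjusted p = 0.00200), but without E2 replicate 1 this was 0.29 (adjusted p = 0.0840).

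LGR5 went against AXIN2 and NKD1 with E2. LGR5 (GeneID 8549, chromosome 12 from 71439798 to 71586310, plus strand) encodes a receptor for R-spondins, secreted proteins that enhance Wnt signaling by clearing RNF43 and ZNRF3 from the membrane, and it marks stem cells in gut and pericentral hepatocytes in mice. It was at 185 and 181 CPM in control cells, 88.8 and 98.5 with E2, 63.0 and 63.7 with PPT, and 109.4 and 104 with DPN. Every treated library was below every control library. LGR5 fell to 51.2% of control with E2 (log2 fold change = -0.97, 95% interval -1.11 to -0.82; adjusted p = 4.19e-12), to 34.6% with PPT (-1.53; adjusted p = 8.61e-16) and to 58.4% with DPN (-0.78; adjusted p = 5.33e-10). The 95% interval for LGR5 with E2 lay below 0 and that for AXIN2 above it, from 0.91 to 1.19.

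Among the transcription factors, TCF7 was the least affected of the targets by the agonists. TCF7 (GeneID 6932, chromosome 5 from 134114681 to 134151865, plus strand) encodes TCF-1, a partner of β-catenin on DNA. It was at 15 and 18.2 CPM in control cells, 23.6 and 24.1 with E2, 15.9 and 13.2 with PPT, and 14.3 and 18.0 with DPN. Only the E2 pair stood apart, and it was higher than control (log2 fold change = 0.52; standard error 0.13; adjusted p = 0.000993). Neither PPT (-0.19, 95% interval -0.46 to 0.08; adjusted p = 0.26) nor DPN (-0.04, -0.31 to 0.23; adjusted p = 0.837) gave a difference past the test, and the DPN value changed sign, to 0.0975, without control replicate 2. TCF7 overlaps SKP1 on the other strand, which had 67648 counts over all libraries. RNF43, LGR5 and ZNRF3 overlap the opposite-strand genes TSPOAP1-AS1 (2712 counts), TSPAN8 (243 counts) and ZNRF3-AS1 (291 counts). SP5 and DKK1 overlap ERICH2-DT (63 counts) and PRKG1-AS1 (5 counts) on the other strand. NKD1 and NOTUM overlap opposite-strand noncoding genes without matched counts. The sources used here do not state whether counting used the strand, without which reads of such opposite-strand pairs cannot be told apart. On the same strand, AXIN2 and RNF43 each overlap a further annotated protein-coding gene, and NKD1, ZNRF3 and LGR5 overlap other annotated genes. These had no matched counts, and the strand would not separate their reads.

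SP5 (GeneID 389058, chromosome 2 from 170715337 to 170718078, plus strand) encodes a zinc-finger repressor that β-catenin induces directly. Its level was 92.5 and 95.4 CPM in control cells, 112 and 103 with E2, 43.8 and 43.7 with PPT, and 37.8 and 40.9 with DPN. Agonist and control libraries were widely separated, while E2 lay only slightly above control. SP5 fell to 46.6% of control with PPT (log2 fold change = -1.10; adjusted p = 3.58e-12) and to 41.9% with DPN (-1.26; adjusted p = 3.58e-13). Its difference with E2 was 0.20 (adjusted p = 0.0239), turned to -0.03 with library size alone, and did not pass without control replicate 1 (0.17; adjusted p = 0.167), control replicate 2 (0.20; adjusted p = 0.0978) or E2 replicate 1 (0.13; adjusted p = 0.227).

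RefSeq promoter windows, from 250 bases before to 50 after a transcription start on GRCh38.p14, were given for RNF43, DKK1, TCF7, SP5 and GLUL, 8 windows in all; AXIN2, NKD1, ZNRF3, NOTUM and LGR5 had no entry. The TCF/LEF words CTTTGAT and CTTTGAA, which begin alike, were searched on both strands, where matches can overlap, although those found in the targets did not. They were found in 2 of the 8 windows, those of SP5 and DKK1, which are shown. Both genes fell by more than 1 on the log2 scale with PPT and with DPN. RNF43 also fell with PPT (-1.57) but held neither word, and a link between words and falls was not tested. At least 1 of the words occurred in 6.86% of the 35116 windows of the table. A match is a description of the letters, not of binding. The capitals below mark the words, on chr2:170715087-170715386 (plus strand) for SP5 and chr10:52314031-52314330 (plus strand) for DKK1, written 5′ to 3′.
SP5: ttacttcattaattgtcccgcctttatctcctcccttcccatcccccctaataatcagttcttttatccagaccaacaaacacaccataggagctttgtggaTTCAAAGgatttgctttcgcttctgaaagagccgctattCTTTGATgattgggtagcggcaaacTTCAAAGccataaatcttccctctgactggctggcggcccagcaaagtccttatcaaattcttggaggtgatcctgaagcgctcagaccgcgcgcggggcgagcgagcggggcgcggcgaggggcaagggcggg
DKK1: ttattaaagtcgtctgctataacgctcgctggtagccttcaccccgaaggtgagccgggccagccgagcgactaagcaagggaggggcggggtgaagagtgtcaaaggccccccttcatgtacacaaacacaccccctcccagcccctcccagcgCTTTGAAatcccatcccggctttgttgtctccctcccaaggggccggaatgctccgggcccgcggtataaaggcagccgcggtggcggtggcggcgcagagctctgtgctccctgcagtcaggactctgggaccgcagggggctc
SP5 held 3 words, beginning 148, 109 and 84 bases before the start, with the middle match CTTTGAT on the strand of the gene and the outer pair CTTTGAA on the opposite strand. DKK1 held a single CTTTGAA, on its own strand, that began 95 bases before the start. With CTTTGAT alone, SP5 was the only match, beside 2.62% of all windows. RNF43, GLUL and TCF7 held neither word in these windows.

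GLUL was the most abundant target by CPM and was nearly doubled by E2. GLUL (GeneID 2752, chromosome 1 from 182378098 to 182392206, minus strand) encodes glutamine synthetase, which fixes ammonia in pericentral hepatocytes. It was at 471 and 450.2 CPM in control cells, 920.4 and 894 with E2, 367 and 364 with PPT, and 323 and 319 with DPN. The groups did not overlap. GLUL rose to 1.97 times control with E2 (log2 fold change = 0.98; standard error 0.06; adjusted p = 1.36e-13), and fell with PPT (-0.33; adjusted p = 5.10e-05) and DPN (-0.52; adjusted p = 6.19e-08). DPN gave the lowest mean of the groups here and in SP5, while PPT gave the lowest in the other 8 genes.

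Levels of different genes were compared per length, as CPM per kilobase of annotated exon (RPKM) in control cells. NOTUM was highest at 76.1 ± 0.22 (SD, n = 2), followed by SP5 at 45.3 ± 1.01, GLUL at 36.5 ± 1.17 and LGR5 at 35.05 ± 0.51. AXIN2, RNF43, ZNRF3 and NKD1 followed, from 20.3 down to 13.0 RPKM, then DKK1 at 8.97 and TCF7 at 1.64. The secreted antagonist NOTUM was thus the most abundant target transcript per length, and TCF7 the least. GLUL and SP5 changed places when the longest transcript was taken as the length, with GLUL at 61.0 and SP5 at 45.9 RPKM.

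**Figure D2:**
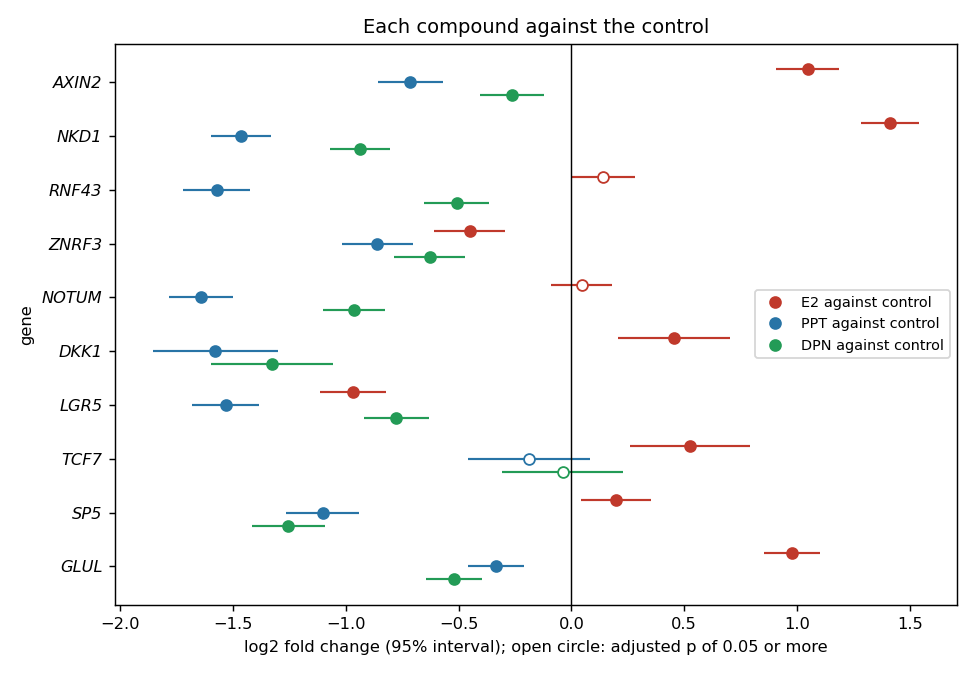
Each compound against the control. The x axis is the log2 fold change with its 95% interval and the y axis the gene; filled circles passed at an adjusted p under 0.05 and open circles did not. With PPT and DPN every filled circle lies below 0, while with E2 LGR5 (-0.97) and ZNRF3 (-0.45) lie below 0 and NKD1 (1.41) is highest; NOTUM, RNF43 and SP5 with E2 turn negative when scaled by library size alone.

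The compounds were then compared directly, at the same dose and time, in 3 pairs. E2 gave higher levels than PPT for all 10 targets, where 30.1% of all tested genes were higher and 32.1% lower with E2. NKD1 differed most, at 7.35 times its PPT level (log2 fold change = 2.88, 95% interval 2.74 to 3.02; adjusted p = 5.69e-23), and DKK1 was at 4.09 times (2.03; adjusted p = 3.76e-13). AXIN2 (1.76), RNF43 (1.71) and NOTUM (1.69) were also past the stricter thresholds, which took in 7.85% of all tested genes. ZNRF3 differed least (0.41; adjusted p = 5.60e-05), next to LGR5 (0.56; adjusted p = 1.63e-07). 

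E2 also exceeded DPN for 9 targets and was below it for LGR5, while 32.6% of all tested genes were higher and 31.3% lower. NKD1 was at 5.10 times (log2 fold change = 2.35; adjusted p = 5.31e-21) and DKK1 at 3.44 times (1.78; adjusted p = 3.96e-12) its DPN level. These were the only targets past the stricter thresholds, against 7.43% of all tested genes. GLUL (1.499; adjusted p = 2.01e-17) and SP5 (1.45; adjusted p = 6.86e-15) came next, then AXIN2 (1.31). For ZNRF3 the difference was small and uncertain (0.18; adjusted p = 0.0492), was -0.02 with library size alone, and with DESeq2 on 8 libraries did not pass (0.17; adjusted p = 0.0923). It also failed to pass with the replicate block (adjusted p = 0.0619) and without control replicate 1 (0.17), control replicate 2 (0.16), E2 replicate 1 (0.215), E2 replicate 2 (0.13) or DPN replicate 2 (0.09). For LGR5 the E2 level was below that of DPN (-0.19; adjusted p = 0.0227), a difference lost without E2 replicate 1 (-0.12; adjusted p = 0.222), without DPN replicate 1 (-0.16; adjusted p = 0.141) and with upper-quartile scaling (-0.13; adjusted p = 0.101).

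The ERβ agonist DPN left most targets higher than the ERα agonist PPT did. DPN exceeded PPT for AXIN2, NKD1, RNF43, ZNRF3, NOTUM and LGR5, 6 of 10 against 19.1% of all tested genes, and was lower for GLUL, against 18.8%. RNF43 differed most, at 2.09 times its PPT level (log2 fold change = 1.06, 95% interval 0.91 to 1.21; adjusted p = 1.46e-11). LGR5 (0.75; adjusted p = 5.62e-09), NOTUM (0.68; adjusted p = 1.55e-08), NKD1 (0.53; adjusted p = 3.46e-07) and AXIN2 (0.45; adjusted p = 1.06e-05) followed. No target passed the stricter thresholds in this pair with edgeR or with DESeq2, nor at an unadjusted p under 0.05 with the same fold, and 1.37% of all tested genes did.

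DKK1, TCF7 and SP5 did not differ between DPN and PPT by the test, with intervals of -0.05 to 0.54, -0.12 to 0.42 and -0.32 to 0.01. GLUL was lower with DPN (-0.19; adjusted p = 0.0167), but not without DPN replicate 1 (-0.195; adjusted p = 0.0728) or DPN replicate 2 (-0.18; adjusted p = 0.0974). ZNRF3 was higher with DPN (0.23; adjusted p = 0.0196), but not without PPT replicate 1 (0.185; adjusted p = 0.121) or DPN replicate 1 (0.15; adjusted p = 0.265). For ZNRF3 the call was also lost with DESeq2 on 4 libraries (0.24; adjusted p = 0.0649). The differences of RNF43, LGR5, NOTUM, NKD1 and AXIN2 passed under every alternative that was run.

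**Figure D3:**
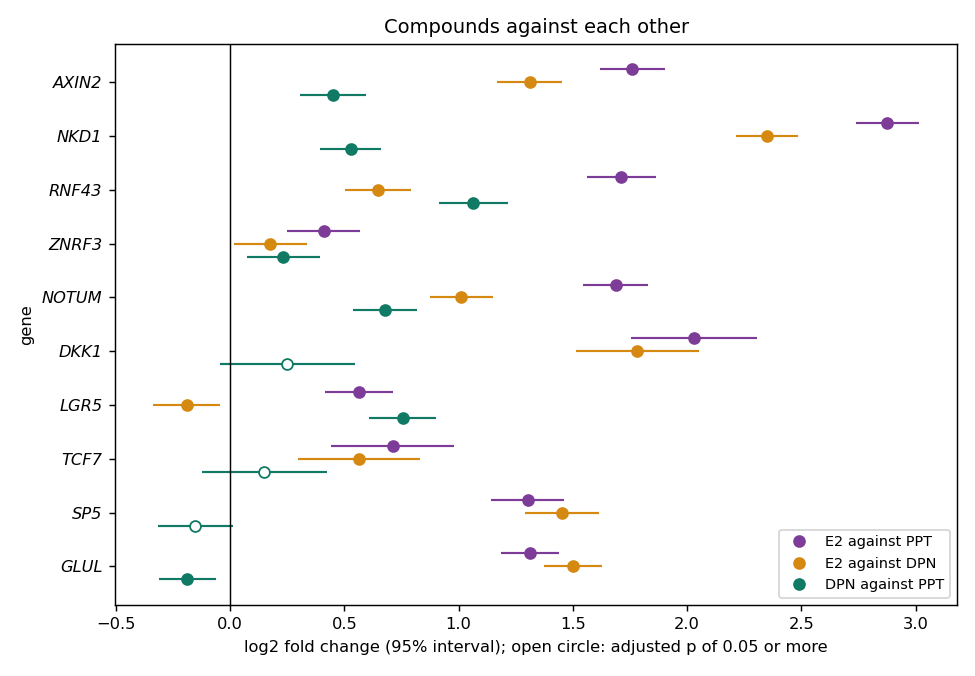
The compounds against each other. The x axis is the log2 fold change with its 95% interval, positive where the first-named compound is higher, and the y axis is the gene; open circles did not pass at an adjusted p under 0.05. All E2 against PPT values lie above 0, up to 2.88 for NKD1, while DPN against PPT runs from -0.19 (GLUL) to 1.06 (RNF43); ZNRF3 in E2 against DPN turns negative when scaled by library size alone.

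The gene with a profile closest to AXIN2 over the 8 libraries was TNS3, tensin 3, an adaptor of focal adhesions. Likeness was measured as the root mean square distance between log2 CPM profiles, each centred on its own mean, among genes with a mean of at least 1 CPM. TNS3 lay at 0.0465 log2 units, and its mean was 85.8 CPM in the control, 187 in E2, 51.2 in PPT and 71.3 in DPN libraries. The long noncoding RNA LINC00261 (0.0693), LDHA, a lactate dehydrogenase subunit (0.0891), and PTPRM, a receptor tyrosine phosphatase (0.0901), followed. Of the other targets, GLUL was the nearest to AXIN2, at rank 188 of 13299 genes (0.234), and LGR5 the farthest, at rank 7150 (0.74). Other pairs of targets lay closer together by rank, with RNF43 at rank 11 from NOTUM (0.183), SP5 at rank 26 from DKK1 (0.249) and NOTUM at rank 38 from DKK1 (0.264).

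Among the other genes of the pathway, ligand transcripts were scarce. Of 21 genes that encode Wnt ligands or the proteins that process and carry them, 5 had enough counts to be tested. WNT3 was the only ligand above 2 CPM in every library, at 13.3 and 12.3 CPM in control cells, and it fell with E2 (log2 fold change = -0.69; adjusted p = 0.000287) and DPN (-0.85; adjusted p = 3.07e-05). WNT7B rose with E2 (2.28; adjusted p = 0.000214) from 11 and 11 to 41 and 41 counts, and with DPN to 26 and 35 (1.52; adjusted p = 0.013). The DPN call was lost with DESeq2 on 4 libraries (adjusted p = 0.0839) and without control replicate 1 (1.48), control replicate 2 (1.55) or DPN replicate 2 (1.30). None of the ligands passed with PPT in edgeR's fit of the 8 libraries, also at an unadjusted p under 0.05, or with DESeq2, while WNT3 (-0.29) did so without PPT replicate 2 (-0.45; adjusted p = 0.0423) and with the crossed pairing (-0.31; adjusted p = 0.0457). Of the 2 R-spondin or receptor genes tested beside LGR5, 1 was higher with E2 (30.8% of all tested genes). Both were lower with PPT (22.8%) and 1 was higher with DPN (24.4%). With DESeq2 on 8 libraries, 0 were higher with E2 and 1 was lower with PPT. RSPO1, which encodes an R-spondin, had at most 34 counts in a library. Its E2 call was lost with DESeq2 on 8 libraries (1.47; adjusted p = 0.115) and without a filter (1.41; adjusted p = 0.0686). Its PPT call was lost with the same alternatives (-2.04; adjusted p = 0.0854, and -1.98; adjusted p = 0.0594). The E2 value was 0.92 without control replicate 2, and the PPT value -1.14 without control replicate 1. LGR4, a relative of LGR5, fell with PPT (-0.33; adjusted p = 0.00018) and rose with DPN (0.35; adjusted p = 6.60e-05).

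Of 13 tested receptor genes, 2 were higher and 5 lower with E2 (30.8% and 31.8% of all tested genes), 1 higher and 3 lower with PPT (22.9% and 22.8%), and 2 higher and 4 lower with DPN (24.4% and 24.1%). LRP5, a coreceptor for Wnt ligands, more than doubled with E2, from 267 and 288 CPM to 644 and 599 (log2 fold change = 1.16; adjusted p = 4.37e-13), and fell with PPT (-0.46; adjusted p = 1.44e-05). FZD5, a Frizzled receptor, rose by 0.82 with E2, by 0.36 with PPT and by 0.70 with DPN. FZD6 fell with E2 (-0.91; adjusted p = 4.66e-09) and PPT (-0.98; adjusted p = 2.04e-09), and RYK, a receptor-like kinase that binds Wnt, fell with E2 (-0.62; adjusted p = 1.72e-06).

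Among genes of the destruction complex and Dishevelled, 16 were tested. Of these, 8 were higher and 3 lower with E2 (30.8% and 31.8% of all tested genes), 1 higher and 2 lower with PPT (22.9% and 22.8%), and 2 higher and 8 lower with DPN (24.4% and 24.1%). With library size alone, the E2 split became 3 higher and 5 lower and the median went from 0.09 to -0.13. AXIN1, the constitutive axin, rose with E2 (log2 fold change = 1.16; adjusted p = 4.61e-11), as did TNKS, a tankyrase that marks axins for degradation (0.90; adjusted p = 5.31e-11). CSNK1A1, which encodes CK1α, fell with E2 (-0.65; adjusted p = 5.27e-09), and DVL2, a Dishevelled, fell with DPN (-0.90; adjusted p = 3.56e-07). AXIN1 and AXIN2 thus both rose with E2, by 1.16 and 1.05. With PPT, AXIN1 stayed near control (0.04; adjusted p = 0.744) whereas AXIN2 fell (-0.71). With DPN both fell, AXIN1 by -0.30 (adjusted p = 0.014) and AXIN2 by -0.26. The AXIN1 call was lost without DPN replicate 1 (-0.17) or control replicate 2 (-0.264).

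β-Catenin's own transcript fell with E2. CTNNB1 was at 949 and 961 CPM in control cells, 559 and 557 with E2, 811 and 834 with PPT, and 885 and 918 with DPN. It fell with E2 (log2 fold change = -0.78; adjusted p = 1.03e-11) and PPT (-0.22; adjusted p = 0.00374) and did not pass with DPN (-0.08; adjusted p = 0.251). Its E2 fall stood beside 6 rises among the 10 targets, those of AXIN2, NKD1 and GLUL included, and beside falls of LGR5 (-0.97) and ZNRF3 (-0.45). TCF7L2, which encodes the main TCF factor of many epithelia, rose with E2 from 39.6 and 38.3 to 77.5 and 80.8 CPM (1.02; adjusted p = 9.50e-11) and fell with PPT (-0.52; adjusted p = 3.28e-05). LEF1 had 39 counts over all libraries and was not tested. CTNNBIP1, an inhibitor of the binding of β-catenin to TCF, fell with E2 (-0.57; adjusted p = 9.77e-06) and PPT (-0.86; adjusted p = 2.32e-08), and TLE1, a corepressor, rose with E2 (0.90; adjusted p = 5.74e-10). Of 14 tested genes, CTNNB1 and its nuclear partners, 3 were higher and 6 lower with E2, 7 were lower with PPT and 5 with DPN. None of the 14 was higher with PPT or DPN. The shares of all tested genes that were lower were 31.8%, 22.8% and 24.1%, and those that were higher 30.8%, 22.9% and 24.4%. With library size alone the E2 split was 3 higher and 8 lower.

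CCND1, TNFRSF19 and VEGFA, targets reported in various tissues, fell with both agonists. Of 16 such genes tested, 8 were higher and 2 lower with E2 (30.8% and 31.8% of all tested genes), 3 higher and 10 lower with PPT (22.9% and 22.8%), and 3 higher and 7 lower with DPN (24.4% and 24.1%), with medians of 0.69, -0.56 and -0.48. With library size alone the E2 split was 8 higher and 5 lower. TNFRSF19, a receptor of the TNF family, was at 163 and 155 CPM in control cells, 168 and 173 with E2, 26.8 and 32.7 with PPT, and 69.0 and 69.5 with DPN, and it fell with both agonists (-2.42 and -1.20). CCND1, cyclin D1, rose with E2 (log2 fold change = 0.74; adjusted p = 3.60e-10) and fell with PPT (-0.66; adjusted p = 8.75e-09) and DPN (-0.47; adjusted p = 2.30e-06). VEGFA, a growth factor for vessels, rose with E2 (2.15) and fell with PPT (-0.45) and DPN (-0.61). BIRC5, survivin, also fell with PPT (-2.28) and DPN (-2.78), but it fell with E2 as well (-2.61). JUN went the other way with the agonists and rose with E2 (1.405), PPT (0.70) and DPN (0.47). MYC fell with DPN (-0.48; adjusted p = 1.00e-06), while its E2 value of -0.09 passed the test only with library size alone (-0.32; adjusted p = 0.000177).

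Of 12 tested pericentral genes other than GLUL, 4 were higher and 3 lower with E2 (30.8% and 31.8% of all tested genes), 3 higher and 6 lower with PPT (22.9% and 22.8%), and 3 higher and 5 lower with DPN (24.4% and 24.1%). SLC1A2, a glutamate transporter, rose with E2 from 57.2 and 53.4 to 255 and 279.6 CPM (log2 fold change = 2.27; adjusted p = 3.94e-19) and with DPN (0.76; adjusted p = 4.79e-09), but not with PPT (-0.02; adjusted p = 0.878). SLC13A3, a carrier of dicarboxylates, fell with E2 (-2.49), PPT (-2.05) and DPN (-1.22), and CYP27A1, a sterol hydroxylase, fell with E2 (-0.85), PPT (-0.79) and DPN (-0.36). RNASE4, a secreted ribonuclease, rose with E2 (0.79), DPN (0.61) and PPT (0.21; adjusted p = 0.0093), the last not without control replicate 2 (0.16; adjusted p = 0.156) or PPT replicate 2 (0.17; adjusted p = 0.0619). The pericentral enzymes CYP2E1 and CYP1A2 had 31 and 11 counts over all libraries and were not tested.

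Of 12 tested periportal genes, 5 were higher and 3 lower with E2 (30.8% and 31.8% of all tested genes), 2 and 2 with PPT (22.9% and 22.8%), and 3 and 2 with DPN (24.4% and 24.1%). G6PC1, which releases glucose from its phosphate, rose with E2 (3.62; adjusted p = 7.93e-18) and DPN (1.49; adjusted p = 5.24e-09), and PCK1, of gluconeogenesis, rose with the same compounds (3.04 and 0.85). HAL, which breaks down histidine, rose with E2 (1.72), PPT (1.43) and DPN (1.01), and ASL, of the urea cycle, rose with PPT (0.83; adjusted p = 2.10e-08).

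The list of secreted antagonists outside the 10 genes also held KREMEN1 and KREMEN2, which encode receptors for Dickkopf proteins. Of its 5 tested genes, 1 was higher and 1 lower with E2 (30.8% and 31.8% of all tested genes). With PPT, 1 was higher and 2 were lower (22.9% and 22.8%). None passed with DPN (24.4% and 24.1%) in edgeR's fit of the 8 libraries, also at an unadjusted p under 0.05, or with DESeq2, while DKK4 (-0.62) passed in edgeR without a filter (adjusted p = 0.0444), without E2 replicate 1 (adjusted p = 0.0366) or without E2 replicate 2 (adjusted p = 0.0359). DKK4, a relative of DKK1, had 87 and 94 counts in control cells, 8 and 0 with E2, 193 and 208 with PPT, and 59 and 54 with DPN. It fell with E2 (log2 fold change = -4.07; adjusted p = 4.23e-08) and rose with PPT (1.23; adjusted p = 0.000613), whereas DKK1 rose with E2 and fell with PPT. The E2 value of DKK4 did not pass with DESeq2 on 4 libraries (-4.08; adjusted p = 0.069). FRZB, a secreted antagonist, fell with PPT (-1.77), from 23 and 21 counts in control cells to 7 and 5. That call was lost with DESeq2 on 4 libraries (-1.79; adjusted p = 0.12), and the value was -1.49 without PPT replicate 2. KREMEN1, a receptor for Dickkopf proteins, fell with PPT (-0.35; adjusted p = 0.00133), and its E2 value of 0.33 passed (adjusted p = 0.00133) but not with library size alone (0.11; adjusted p = 0.271).

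**Figure D4:**
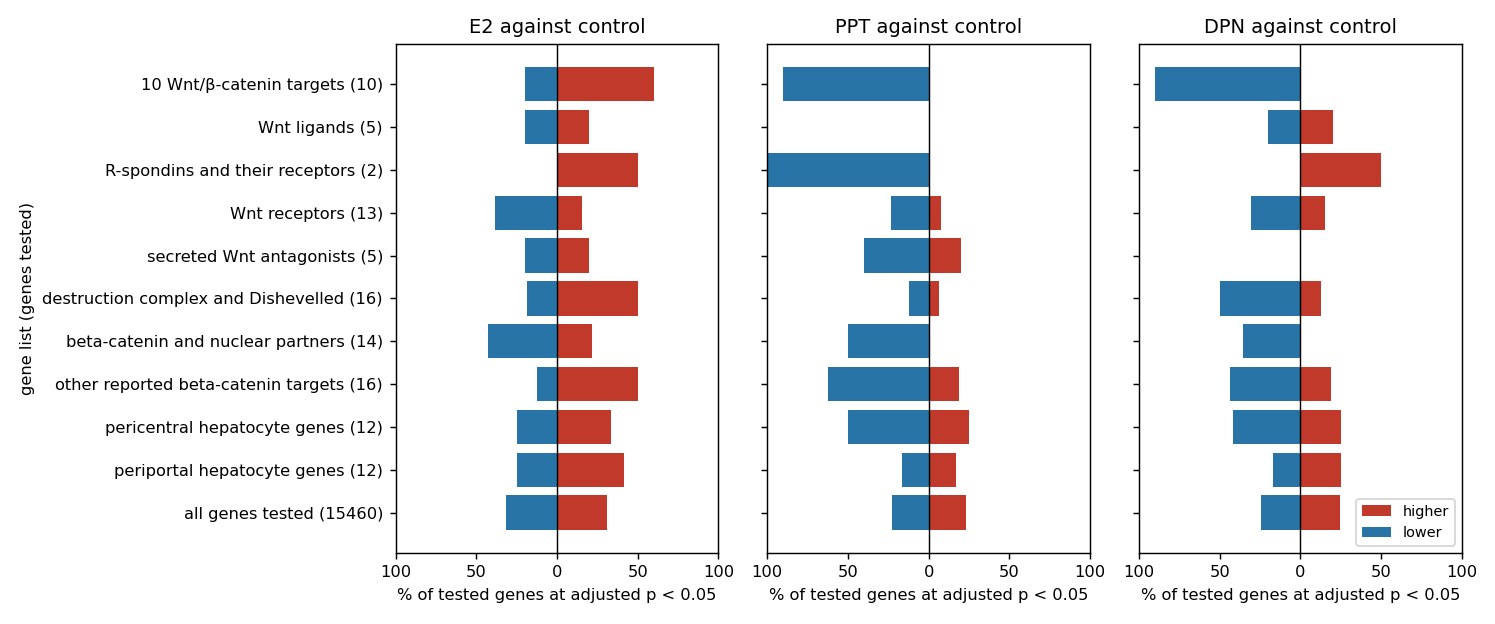
Share of tested genes that were higher or lower than control, by gene list. The x axis is the percentage of tested genes of each list at an adjusted p under 0.05, to the right when higher and to the left when lower, the y axis is the list with its number of tested genes, and the lowest bar of each panel is all genes tested. The 10 targets reach 90% lower with PPT and with DPN, against 22.8% and 24.1% of all genes. With E2 the splits of the 10 targets and of the destruction complex move toward lower when scaled by library size alone. The bar of secreted antagonists includes KREMEN1 and KREMEN2, receptors for Dickkopf proteins.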

How the data were processed

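Poly(A) RNA from HepG2 cells was sequenced by the authors from one end (50 bp, strand-specific kit), aligned to GRCh38.p10 with Illumina's own pipeline and deposited as raw counts per Entrez gene. The counter and its use of the strand are not given in the sources used here. The 8 deposited libraries were grouped by their labels. Counts were fitted together in edgeR 4.0.16 under R 4.3.3 after filterByExpr (minimum count 10, minimum total 15) and TMM scaling, followed by its quasi-likelihood F test and Benjamini-Hochberg adjustment. Dividing a fold change by the root of its F gave its standard error, from which 95% intervals were taken. Exon lengths and positions come from GENCODE 44. The floor of 3 counts is 0.101 to 0.120 CPM per library and covers counting error only.

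The 10 members and all lists were chosen with earlier results of these data known. Text names all members, up to 4 genes per list with the smallest p against the control among those that passed, 5 fixed pathway genes (CTNNB1, LEF1, TCF7L2, MYC, CCND1) and the 5 genes nearest to AXIN2, the last of which is not reported here; other genes named as absent or scarce were chosen after their values were seen. Alternatives were DESeq2 1.42.0, other scalings and filters, 4-library fits, a replicate block, and leaving out each library. The fit was also run on simulated data. The outcome is not reported here and is not used as support for any call.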

Additional observations from a re-analysis of the deposited data

How the results depend on the processing

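At the stricter thresholds of the study's methods the count of changed targets was 0 of 10 with E2, 4 with PPT and 0 with DPN, 5 for E2 against PPT, 2 for E2 against DPN and 0 for DPN against PPT, and over all genes it was 1566, 736, 610, 1682, 1654 and 212 in that order (edgeR, without the fold minimum: 9678, 7062, 7502, 9604, 9877 and 5847). Under every other alternative these counts stayed within 1.5 times. Of 1020 values of single targets under alternatives, 985 kept their direction and their side of the threshold, 25 lost it, 2 gained it and 8 changed sign. With library size alone, NOTUM, RNF43 and SP5 in E2 against control became -0.179, -0.0858 and -0.0261, and ZNRF3 in E2 against DPN became -0.0203, since that setting shifts the median of all genes with E2 by -0.22, -0.21 and -0.20 against control, PPT and DPN; of all changed genes 34.3% were then higher with E2 than PPT and 37.7% than DPN. NOTUM with E2 was -0.00362 without a filter. Leaving out a library moved TCF7 between -0.21 and 0.12 for DPN against control and between -0.0251 and 0.30 for DPN against PPT; the cause was not tested. Left-out libraries gave 6 to 8 changed targets with E2 and 8 to 10 for E2 against DPN. DKK1 with E2 was 0.23 (adjusted p = 0.0975) with library size alone. RPKM with the longest transcript as length, for example 24.8 and not 20.3 for AXIN2, moved all but ZNRF3 and SP5 beyond the replicate spread. Deviations from group means correlated at -0.116 to 0.0296 between groups, so no pairing by replicate number was seen. With 2 libraries per group and genes of low count included, these values cannot exclude handling shared by replicate number. With a replicate block the number of all genes changed, E2 against control, was 9529, that of all genes changed, PPT against control, 6873 and that of all genes changed, DPN against control, 7347. The block ended 1 target's call, that of ZNRF3 in E2 against DPN. The crossed pairing of control and PPT, chosen after seeing the data, gave 9 changed targets (all genes changed, PPT against control: 7637). DKK1 and TCF7, the targets with the lowest CPM, had standard errors of 0.12 to 0.14.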
